A study of Mus musculus with 4 samples.

Results

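The ADAR family of RNA editing enzymes was followed in astrocyte preparations of mouse cerebral cortex at postnatal day 5. Its members were chosen by gene name as Adar, Adarb1 and Adarb2, 3 of the 23475 genes in the files, and all 3 passed the filter on low counts. The libraries fell into 2 groups of 2. Those labelled KO came from mice whose genotype is given as PD1cKO-Cx3, and those labelled WT from PD1fl/fl mice, in which the PD-1 gene (Pdcd1) carries loxP sites but is not deleted. The sources used here spell out neither the Cre driver behind the name Cx3 nor the number of animals in a library. Nothing in them says that replicates came from separate animals. Sex-linked transcripts, given below, show that KO 1 and KO 2 came from different animals, so their spread includes a difference in sex. Between the WT libraries the spread may be technical. Errors and p-values cover the spread between these libraries only.

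ADAR proteins bind double-stranded RNA and convert adenosine to inosine, which the ribosome and reverse transcriptase read as guanosine. Adar encodes ADAR1, which has a constitutive nuclear form and an interferon-inducible form, and which edits repeat-derived duplexes so that the cytoplasmic sensor MDA5 does not respond to them. Adarb1 encodes ADAR2, which recodes neurotransmitter receptor transcripts such as Gria2, the AMPA receptor subunit whose edited form makes the channel impermeable to calcium. Adarb2 encodes ADAR3, a protein of the brain for which no deaminase activity has been detected and which can compete with the active enzymes for RNA. In the cortex, Adarb2 is also known as a gene of interneurons born in the caudal ganglionic eminence. The counts measure transcripts, so they hold no value for editing itself.

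The promoter windows of the members are shown because the family has separate transcription starts, and because interferon-stimulated genes and Adar are set side by side further on. Each window runs from 250 bases before to 50 bases after a transcription start, 5′ to 3′ on the gene's strand, and was taken from RefSeq on GRCm38.p6. RefSeq lists 3 windows for Adar, 1 for Adarb1 and 1 for Adarb2. The first 2 Adar windows overlap, and windows 1 and 3 are printed. Capitals mark GAAANNGAA on either strand, a short form of the element that interferon regulatory factors bind.
Adar, window 1 (chr3:89714772-89715071, plus strand): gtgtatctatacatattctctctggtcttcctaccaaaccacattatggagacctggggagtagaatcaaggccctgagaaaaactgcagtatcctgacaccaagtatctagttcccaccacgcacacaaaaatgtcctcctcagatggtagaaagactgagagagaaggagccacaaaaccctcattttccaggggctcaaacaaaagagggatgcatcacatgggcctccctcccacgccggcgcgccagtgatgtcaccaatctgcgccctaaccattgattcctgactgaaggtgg
Adar, window 3 (chr3:89730468-89730767, plus strand): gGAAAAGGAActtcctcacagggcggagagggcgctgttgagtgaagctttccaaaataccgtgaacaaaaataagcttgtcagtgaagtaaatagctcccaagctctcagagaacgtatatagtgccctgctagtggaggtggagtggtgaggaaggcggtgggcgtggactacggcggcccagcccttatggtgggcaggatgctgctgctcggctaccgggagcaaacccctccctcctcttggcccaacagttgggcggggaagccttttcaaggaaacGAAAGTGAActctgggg
Adarb1 (chr10:77418224-77418523, minus strand): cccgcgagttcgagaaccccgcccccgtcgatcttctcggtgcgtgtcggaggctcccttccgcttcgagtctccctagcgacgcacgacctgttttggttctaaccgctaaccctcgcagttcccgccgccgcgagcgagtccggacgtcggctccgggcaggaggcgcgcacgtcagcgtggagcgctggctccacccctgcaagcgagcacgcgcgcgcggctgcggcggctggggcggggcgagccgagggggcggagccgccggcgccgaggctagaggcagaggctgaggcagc
Adarb2 (chr13:8202616-8202915, plus strand): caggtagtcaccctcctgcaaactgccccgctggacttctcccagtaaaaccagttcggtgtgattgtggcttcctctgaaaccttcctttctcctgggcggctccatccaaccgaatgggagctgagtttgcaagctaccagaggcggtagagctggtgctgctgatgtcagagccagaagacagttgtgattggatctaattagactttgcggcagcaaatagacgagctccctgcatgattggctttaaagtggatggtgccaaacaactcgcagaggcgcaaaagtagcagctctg

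The full interferon-stimulated response element, in which an A follows GAAANNGAA, was searched on both strands and was found in 0 of the 5 windows of the family, where 3.44% of all 32851 promoter windows held it. GAAANNGAA itself, which every full element also contains and which was chosen after the windows had been read, occurred at 2 places in Adar window 3 and in 0 of the remaining 4 windows. Of all windows 8.56% held it. These matches describe letters only. The GC content of the 5 windows ran from 50% in Adar window 1 to 73.0% in the Adarb1 window. Adar window 2, which is not printed, had 70%, Adar window 3 had 55.7% and the Adarb2 window had 52.7%, the median over all windows.

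Gene counts summed to between 14224519 and 16961160 per library. The targeted gene gave no check of the labels: Pdcd1 had 20 counts in KO 2, was not listed in KO 1, which leaves room for at most 4 counts, and had 0 counts in both WT libraries. The groups are therefore called the KO-labelled and WT libraries. KO 2 stood apart in sex-linked transcripts: Ddx3y had 2472 counts there and 0 elsewhere, and Xist had 0 counts there and 6732 or more elsewhere. Astrocyte markers were high in every library, with summed levels of 10322 to 12071 CPM, the count scaled to library size with TMM, in KO-labelled libraries and 11342 to 11757 CPM in WT. Transcripts of other cells were present too, and the summed microglia markers stood at 3860 to 4578 CPM in KO-labelled libraries and at 869 to 1260 CPM in WT.

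All 3 family members had a lower mean level in KO-labelled libraries than in WT. Adarb2 differed most, at 0.402 times its WT level, while Adar and Adarb1 were at 0.738 and 0.696 times theirs. The 2 libraries of each group lay close together for Adarb2 and well apart for Adarb1. The family was chosen with these counts in view, so the contrast is given for the members as a description, with no test.

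Adarb2 (ENSMUSG00000052551) lies on chromosome 13 at 8202866 to 8768747 of GRCm38, on the plus strand, and spans 565882 bases. It had 1303 and 1218 counts in KO-labelled libraries, against 3215 and 2850 counts in WT. Scaled to library size these were 81.4 and 74.7 CPM in KO-labelled libraries, against 191 and 198 CPM in WT. Both KO-labelled libraries were thus low and both WT libraries high, with no overlap and with a gap far wider than the difference between replicates. The means were 78.1 ± 4.76 CPM in KO-labelled libraries and 194 ± 5.40 CPM in WT (SD, n = 2 each). The edgeR log2 fold change was -1.32 ± 0.14 (SE), and it ran from -1.38 to -1.26 when each library in turn was left out. A lower log2 fold change was seen in 3.53% of all 17696 genes tested, and 5.79% of them had one of -1 or below.

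Adar (ENSMUSG00000027951) lies on chromosome 3 at 89715022 to 89753446, on the plus strand. It had 319 and 438 counts in KO-labelled libraries, against 574 and 423 counts in WT. These were 19.9 and 26.9 CPM in KO-labelled libraries, against 34.0 and 29.4 CPM in WT. KO 1 was the lowest library, and KO 2 lay just below WT 2, so the groups did not overlap but came within the spread of their replicates. The means were 23.4 ± 4.90 CPM in KO-labelled libraries and 31.7 ± 3.26 CPM in WT (SD, n = 2 each), with a log2 fold change of -0.44 ± 0.27 (SE). That value was -0.24 without KO 1 and -0.67 without KO 2. The exons of Adar share 1365 of their 8118 merged bases (16.8%) with exons of Chrnb2, a nicotinic receptor subunit gene on the opposite strand. No source used here states whether reads were counted by strand, so how far this overlap affects the Adar counts is not known. Chrnb2 itself had 25.0 and 17.1 CPM in KO-labelled libraries, against 31.1 and 13.2 CPM in WT.

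Adarb1 (ENSMUSG00000020262) lies on chromosome 10 at 77290726 to 77418270, on the minus strand, and was the least abundant member. It had 140 and 233 counts in KO-labelled libraries, against 228 and 282 counts in WT. These were 8.75 and 14.3 CPM in KO-labelled libraries, against 13.5 and 19.6 CPM in WT. The groups overlapped, since KO 2 lay above WT 1. The means were 11.5 ± 3.92 CPM in KO-labelled libraries and 16.6 ± 4.31 CPM in WT (SD, n = 2 each), a difference of the same order as the spread between replicates. The log2 fold change of -0.52 ± 0.40 (SE) was -0.21 without KO 1, -0.92 without KO 2 and -0.23 without WT 2.

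**Figure D1:**
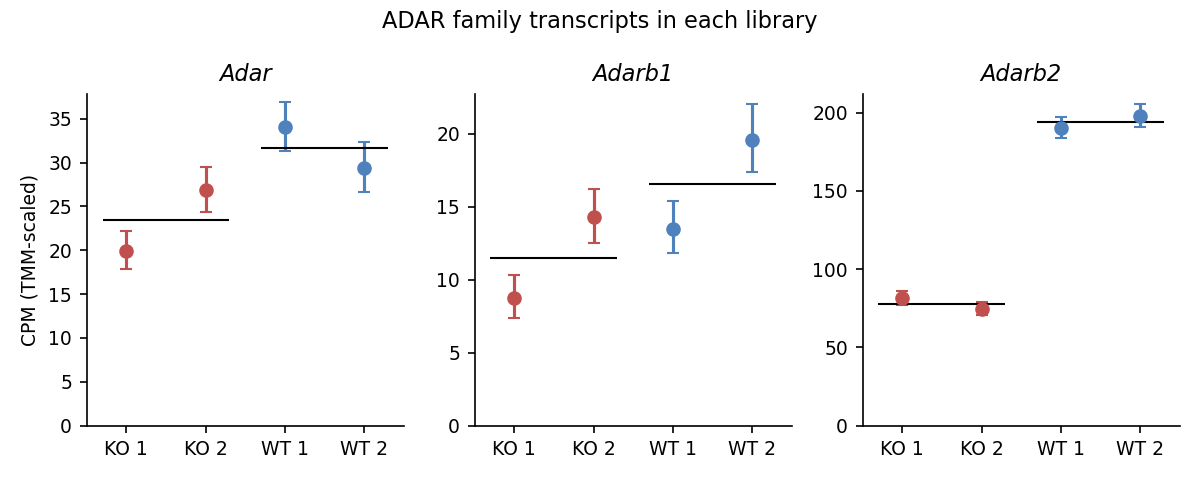
Level of Adar, Adarb1 and Adarb2 in each library in CPM; each panel has its own axis from 0, points are libraries, bars are exact 95% Poisson intervals that cover counting error only, and horizontal lines are group means. Adarb2 stood at 74.7 to 81.4 CPM in KO-labelled libraries and at 191 to 198 CPM in WT, while the Adarb1 values of the groups overlapped.

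Values of both KO-labelled libraries below both WT libraries were found for 2 of the 3 members and for 18.4% of all genes tested. Nothing is read from that share, because the family was chosen with the same contrast in view.

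In the authors' deposited tables, each of which sets a KO-labelled library against a WT library, the log2 fold change of Adarb2 was -1.23 and -1.31 for KO 1 and -1.35 and -1.43 for KO 2, against WT 1 and WT 2 in turn. Every pair thus gave nearly the same size, although the pairs share libraries. For Adar the authors' deposited tables gave -0.77 and -0.59 for KO 1 and -0.34 and -0.16 for KO 2. For Adarb1 the authors' deposited tables gave -0.63 and -1.19 for KO 1 and 0.08 and -0.48 for KO 2, so 1 of the 4 pairs had the opposite sign. The authors' significant label stood at all 4 pairs for Adarb2, at 1 pair for Adarb1 and at 0 pairs for Adar. Each pair sets a single library against a single library, so that label reflects no replicates. It rests on the same counts by which the family was chosen. The share of all genes with that label was not taken here, so nothing is read from it.

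Per length, the transcript of the catalytically inactive member was the most abundant of the family in each of the 4 libraries. Levels were divided by the merged exon length of 13114 bases for Adarb2, 8118 for Adar and 11272 for Adarb1. Adarb2 had 5.95 ± 0.36 CPM per kb in KO-labelled libraries and 14.8 ± 0.41 CPM per kb in WT (SD, n = 2 each). Adar followed with 2.88 ± 0.60 CPM per kb in KO-labelled libraries and 3.91 ± 0.40 CPM per kb in WT. The lowest was Adarb1 with 1.02 ± 0.35 CPM per kb in KO-labelled libraries and 1.47 ± 0.38 CPM per kb in WT. In both groups these neighbours in the order lay further apart than the replicates of either. Among 17660 tested genes with a length, the level of Adarb2 per kb exceeded that of 57.0% and 58.8% of genes in KO-labelled libraries and of 78.8% and 79.9% in WT. Adarb1 exceeded 17.7% to 24.6% of genes in KO-labelled libraries and 25.4% to 31.6% in WT.

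Adarb2 made up a smaller share of the family's counts in both KO-labelled libraries, which restates the contrast given above in another form. The family was chosen with that contrast in view, so the shares and ratios are a description and no separate result. It took 73.95% of the family's 1762 counts in KO 1 (exact 95% binomial interval 71.8% to 76.0%) and 64.5% of 1889 counts in KO 2 (62.3% to 66.6%). It took 80.0% of 4017 counts in WT 1 (78.8% to 81.3%) and 80.2% of 3555 counts in WT 2 (78.8% to 81.5%). The intervals cover counting error only, and the WT libraries agreed within them while KO-labelled libraries did not. Per kb, the ratio of Adarb2 to Adar was 2.53 and 1.72 in KO-labelled libraries, against 3.47 and 4.17 in WT. The ratio of Adarb2 to Adarb1 was 8.0 and 4.49 in KO-labelled libraries, against 12.1 and 8.69 in WT. The ratio of the active enzymes, Adar to Adarb1, was 3.16 and 2.61 in KO-labelled libraries, against 3.496 and 2.08 in WT, and overlapped between the groups.

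**Figure D2:**
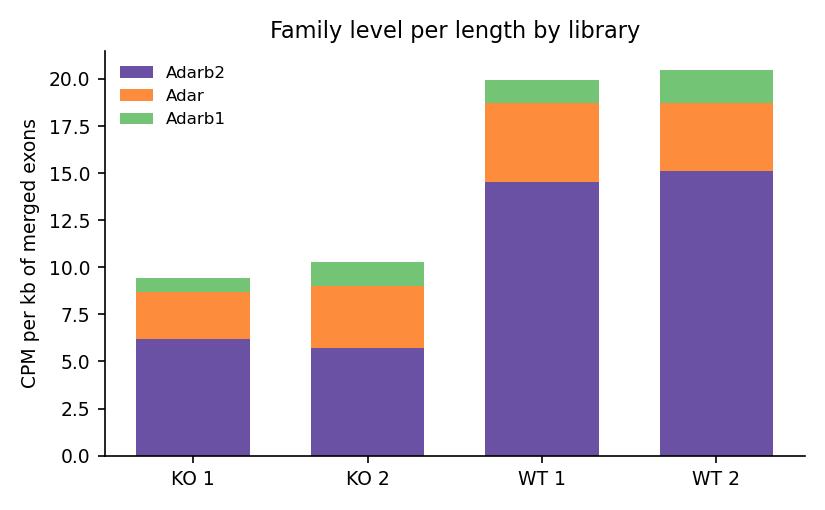
Level of the 3 family members per kb of merged exons, in CPM per kb, stacked for each library, with Adarb2 at the bottom of each bar. The bars reach 9.44 and 10.3 CPM per kb in KO-labelled libraries and 19.9 and 20.5 CPM per kb in WT, and Adarb2 is the largest segment in all 4.

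The genes next to the members on their chromosomes were looked at for comparison, and 0 of them passed (quasi-likelihood test of edgeR, adjusted p under 0.05 after Benjamini-Hochberg, where 0.017% of all genes tested passed). On one side of Adarb2, 34221 bases away, Wdr37 had 77.2 and 82.3 CPM in KO-labelled libraries, against 57.1 and 49.1 CPM in WT (log2 fold change 0.59 ± 0.18 SE, adjusted p = 0.457). It lay above WT in both KO-labelled libraries, opposite to Adarb2. On its other side the nearest gene with a mean of at least 1 CPM was the phosphofructokinase gene Pfkp, 1554089 bases away, at 72.7 and 82.0 CPM in KO-labelled libraries, against 53.0 and 87.7 CPM in WT. Inside the Adarb2 span lie 5 annotated loci of low level, none of which shares an exonic base with it in the GENCODE M21 annotation. The most abundant, AC126673.1 on the same strand, had 39 and 43 counts in KO-labelled libraries, against 79 and 150 counts in WT. On the log2 scale it differed by -1.57 ± 0.62 (SE, adjusted p = 0.584). Around Adarb1, Pofut2, which adds fucose to secreted proteins, had 48.6 and 42.1 CPM in KO-labelled libraries, against 34.5 and 34.6 CPM in WT (adjusted p = 0.721). Fam207a, on its other side, had a log2 fold change of 0.21 ± 0.24 (SE). Beside Adar, the potassium channel gene Kcnn3 had a log2 fold change of -0.27 ± 0.26 (SE) and 4632404H12Rik one of 0.16 ± 0.85 (SE).

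Genes with the pattern most like each member over the 4 libraries were found by the root mean square difference of log2(CPM + 1), centred per gene, among 12197 genes with a mean of at least 5 CPM. For Adarb2 these were Ankrd34a (difference 0.06), Zfp128 (0.11) and Gm38381 (0.11), where the median over all genes was 0.69. Ankrd34a had 3.25 and 2.82 CPM in KO-labelled libraries, against 9.13 and 10.2 CPM in WT, and Zfp128 had 6.31 and 5.52 CPM in KO-labelled libraries, against 18.1 and 15.2 CPM in WT. For Adar the closest included Sod2, the mitochondrial superoxide dismutase, and Ptgfrn, each at 0.02 where the median was 0.35. Sod2 had 110 and 143 CPM in KO-labelled libraries, against 179 and 157 CPM in WT. For Adarb1 they were Pank2, a kinase of coenzyme A synthesis, Yars2, a mitochondrial tyrosyl-tRNA synthetase, and Brip1, a DNA helicase, at 0.03 to 0.04 where the median was 0.44. All these genes were picked for the smallest differences, so values far below the median follow from the search itself.

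Among other genes of the editing pathway none passed. Of 70 tested genes in 6 lists of related deaminases, ADAR partners, recoded substrates, double-stranded RNA sensors and interferon-stimulated genes, 0 passed over all genes in either direction (edgeR, adjusted p under 0.05; background 0.017% higher and 0% lower). Taken without adjustment, p was under 0.05 for 6 higher genes and 0 lower ones, where 5.88% of all genes tested were higher and 2.41% lower at that p. By DESeq2 2 were called higher, where it called 1.78% of all genes higher, and 0 lower, while limma-voom, which called 0.141% of all genes higher and 0.017% lower, gave 0 calls among them.

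Among the other deaminases, the tRNA enzyme Adat1 had 15.7 and 14.5 CPM in KO-labelled libraries, against 17.5 and 14.2 CPM in WT, and the groups overlapped. Adat3, a subunit of the enzyme that makes inosine at the wobble base of tRNA, had 2.31 and 1.04 CPM in KO-labelled libraries, against 0.652 and 0.139 CPM in WT (adjusted p = 0.792). Its catalytic partner Adat2 had at most 0.491 CPM and was not tested. Of 4 tested cytidine deaminase genes and cofactors 0 passed, with a median log2 fold change of 0.26, against 0.00 over all genes tested. That median ran from 0.01 without WT 1 to 0.60 without WT 2, and was 0.44 without KO 2 and 0.04 without KO 1. Apobec3, an antiviral deaminase, had 64.7 and 51.3 CPM in KO-labelled libraries, against 43.8 and 50.1 CPM in WT (adjusted p = 0.815), and Apobec1, which edits Apob mRNA, had a log2 fold change of 0.21 ± 0.47 (SE). Rbm47, an RNA-binding cofactor of APOBEC1, had 9.12 and 7.60 CPM in KO-labelled libraries, against 2.73 and 0.348 CPM in WT (adjusted p = 0.587). Apobec2, at a mean of 1.01 CPM, had overlapping groups.

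Regulators and binding partners of ADARs lay on both sides of 0. Of the 19 tested, 0 passed, 3 had both KO-labelled libraries above WT (21.2% of all genes tested) and 2 had both below (18.4%), and their median log2 fold change was 0.03. The median lay between -0.03 without KO 1 and 0.07 without WT 1 when libraries were left out in turn. Among the most abundant were Hnrnpa2b1, an RNA-binding protein of the nucleus, with a log2 fold change of -0.01 ± 0.11, the polyadenylation factor Cpsf6 with -0.01 ± 0.10 and Elavl1 with -0.13 ± 0.15 (SE, adjusted p between 0.922 and 0.994). Chosen after its values were seen, Wwp2, a ubiquitin ligase of ADAR2, had 92.6 and 85.9 CPM in KO-labelled libraries, against 73.2 and 59.6 CPM in WT (log2 fold change 0.43 ± 0.18 SE, adjusted p = 0.628).

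Transcripts that ADARs recode had a median log2 fold change of -0.03 over 21 tested members, and 0 passed. It was -0.12 without KO 2 and turned positive, to 0.12 without WT 2 and 0.02 without KO 1. Both KO-labelled libraries lay above WT for 3 of them (21.2% of all genes tested) and below for 4 (18.4%). Gria2, the best known target of ADAR2, had 369 and 401 CPM in KO-labelled libraries, against 383 and 415 CPM in WT, with overlapping groups (log2 fold change -0.05 ± 0.11 SE, adjusted p = 0.968). The most abundant substrates, Son, Azin1, Gria2 and the coatomer gene Copa, had log2 fold changes of -0.06, -0.21, -0.05 and -0.11. Azin1, which encodes antizyme inhibitor, had 402 and 403 CPM in KO-labelled libraries, against 475 and 460 CPM in WT (adjusted p = 0.66). Chosen after its values were seen, Gria3 had 68.5 and 81.8 CPM in KO-labelled libraries, against 42.1 and 42.5 CPM in WT (adjusted p = 0.349), and DESeq2 called it higher. Htr2c, the edited serotonin receptor, had at most 1.32 CPM in a library and was not tested.

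Sensors of double-stranded RNA, which ADAR1 editing is known to keep quiet, were low in all libraries. Their summed level was 131 to 171 CPM in KO-labelled libraries and 133 to 134 CPM in WT. Of 10 tested members 0 passed, and the median log2 fold change was 0.54, which became 0.22 without KO 1, 0.73 without KO 2, 0.91 without WT 1 and 0.76 without WT 2. For 4 of the 10 both KO-labelled libraries lay above WT (21.2% of all genes tested), and for 1 both lay below (18.4%). Ifih1, which encodes MDA5, had 2.87 and 4.42 CPM in KO-labelled libraries, against 3.2 and 6.81 CPM in WT, and the groups overlapped. Eif2ak2, which encodes the kinase PKR, had 8.81 and 7.42 CPM in KO-labelled libraries, against 13.6 and 12.7 CPM in WT (log2 fold change -0.69 ± 0.35 SE, adjusted p = 0.701). Ifih1 was chosen after its values were seen, as was the sensor gene Ddx58, which went the other way. Ddx58 had 12.8 and 14.3 CPM in KO-labelled libraries, against 6.64 and 0.695 CPM in WT (log2 fold change 1.88 ± 0.94 SE, edgeR adjusted p = 0.693). Eif2ak2 was among the 4 most abundant sensor genes, as were the adaptor gene Mavs, at a log2 fold change of 0.46 ± 0.27, and Tlr3, at 0.61 ± 0.50 (SE).

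Interferon-stimulated genes had mostly positive fold changes, but none passed. Positive log2 fold changes were found for 13 of 14 tested genes, as for 8842 of all 17696 genes tested, and 10 genes had both KO-labelled libraries above WT (21.2% of all genes), while 0 passed. Without adjustment 3 had p under 0.05, each of them higher, where 5.88% of all genes tested were higher at that p. Their median log2 fold change was 0.86, the same with Rsad2, which had 0 counts in both WT libraries, at its lower bound of 3 counts over the group, and it was 0.52 without KO 1, 0.68 without KO 2, 0.63 without WT 1 and 0.78 without WT 2. Among genes with a mean of at least 5 CPM it was 0.45. The most abundant were Ifit2 (-0.08 ± 0.20), Stat2 (0.86 ± 0.55), Irf9 (0.32 ± 0.21) and Trim25 (1.35 ± 0.38 SE, adjusted p = 0.447). Stat2, part of the factor that interferon activates, had 41.7 and 55.0 CPM in KO-labelled libraries, against 41.1 and 12.2 CPM in WT, so WT 2 alone was low. The microglia markers given above were higher in the same libraries, and their part in this list was not tested.

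**Figure D3:**
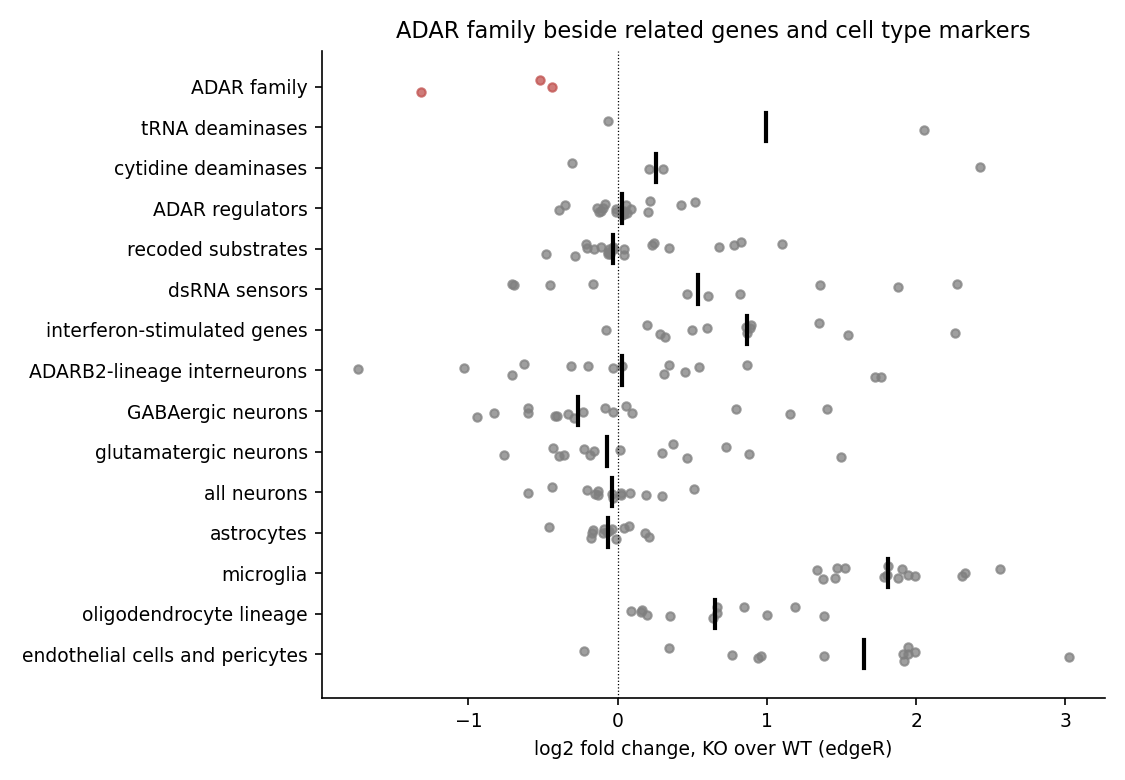
Log2 fold change of KO over WT (edgeR) for each tested gene of the ADAR family in red and of 14 comparison lists in grey, with a black bar at each list's median; Rsad2, at 0 counts in WT, is left out as a point. The 3 family members lie at -1.32, -0.52 and -0.44, while the medians of ADAR regulators and of recoded substrates lie at 0.03 and -0.03.

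Because Adarb2 marks a class of cortical interneurons, neuronal transcripts were set beside it. In bulk preparations such as these, fewer cells of a type and less RNA per cell cannot be told apart. Nor do the counts show which cells a transcript came from, so no list here measures a cell type alone. Other transcripts of the interneurons among which Adarb2 is known lay on both sides of 0, and of 15 tested members 0 passed. Both KO-labelled libraries lay above WT for 6 (21.2% of all genes tested) and below for 2 (18.4%). The median log2 fold change was 0.03, or 0.31 with genes of a mean of at least 5 CPM. Without WT 1 it was 0.20, without WT 2 -0.06 and without KO 2 0.08. Their summed level was 1244 to 1510 CPM in KO-labelled libraries and 974 to 987 CPM in WT, a difference in which Reln weighed most. Log2 fold changes were above 0 for 8 of the 15 and below 0 for 7, so the sum does not stand for the list as a group. Reln, which encodes the secreted protein reelin, had 298 and 409 CPM in KO-labelled libraries, against 86.0 and 128 CPM in WT (log2 fold change 1.72 ± 0.25 SE, adjusted p = 0.137). DESeq2 called Reln higher (adjusted p = 1.06e-10), as did edgeR with no filter on low counts (adjusted p = 0.0481; 0.222% of all genes called higher) and at a mean of at least 5 CPM (adjusted p = 0.0431; 0.517% called higher). Ndnf, chosen after its values were seen, differed by 1.77 ± 0.26 (SE) on the log2 scale and was called higher by DESeq2 and at 5 CPM. Sp8, a transcription factor of these cells, had 282 and 311 CPM in KO-labelled libraries, against 321 and 284 CPM in WT, and Prox1 had a log2 fold change of 0.34 ± 0.21 (SE). Npas3, a transcription factor, differed by 0.54 ± 0.17 on the log2 scale (SE, adjusted p = 0.455). Chosen after its values were seen, the neuropeptide gene Vip had 4.69 and 9.996 CPM in KO-labelled libraries, against 13.99 and 35.2 CPM in WT (log2 fold change -1.74 ± 0.59 SE, adjusted p = 0.497), with replicates of each group more than a factor of 2 apart.

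General transcripts of GABAergic neurons had a median log2 fold change of -0.26 over 16 tested members, which was -0.38 without KO 1, -0.14 without KO 2, -0.09 without WT 1 and -0.32 without WT 2. Both KO-labelled libraries lay below WT for 7 of them, against 18.4% of all genes tested, and above for 3, against 21.2%, and 0 passed. Before adjustment 4 lower and 1 higher had p under 0.05, where 2.41% of all genes tested were lower and 5.88% higher at that p. Their summed level was 1589 to 1828 CPM in KO-labelled libraries and 1878 to 1948 CPM in WT. Gad2, an enzyme of GABA synthesis that was chosen after its values were seen, had 102 and 123 CPM in KO-labelled libraries, against 174 and 167 CPM in WT (log2 fold change -0.60 ± 0.15 SE, adjusted p = 0.381), and DESeq2 called it lower, as it did 0.356% of all genes. Maf, also chosen after its values were seen, went the other way. It had 37.6 and 27.3 CPM in KO-labelled libraries, against 9.72 and 14.8 CPM in WT (log2 fold change 1.40 ± 0.34 SE, edgeR adjusted p = 0.35). DESeq2 called Maf higher, as it did 1.78% of all genes. Among the most abundant members were Dlx2, at a log2 fold change of 0.10 ± 0.14, and Dlx1, at -0.41 ± 0.12 (SE). Dlx1, a transcription factor of interneuron precursors, had 183 and 172 CPM in KO-labelled libraries, against 240 and 229 CPM in WT (adjusted p = 0.455). The part of these transcripts in the level of Adarb2 was not tested.

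**Figure D4:**
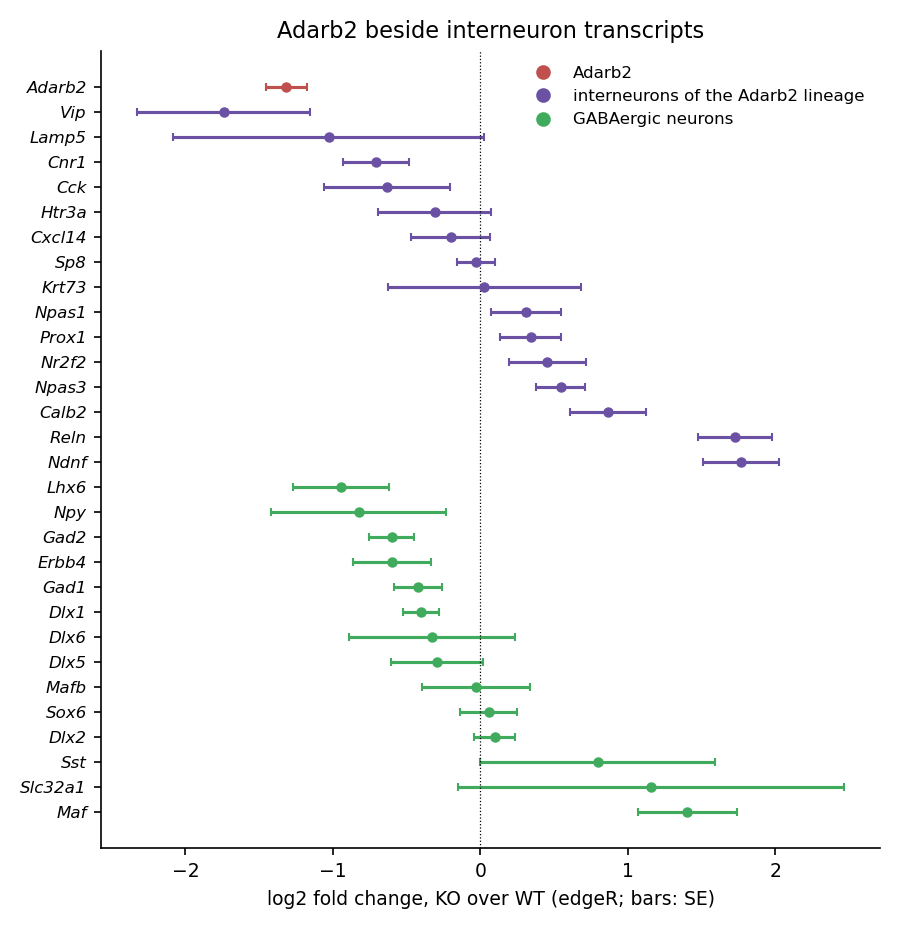
Log2 fold change of KO over WT (edgeR, horizontal axis; bars are SE) for Adarb2 in red, for 15 tested genes of the interneurons in which Adarb2 is known in purple and for 14 of the 16 tested genes of GABAergic neurons in green. Adarb2 lies at -1.32 with an SE of 0.14, while the genes of its interneuron list run from -1.74 for Vip to 1.77 for Ndnf.

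Transcripts of neurons at large lay on both sides of 0, and 0 members of either list passed. The list of all neurons had a median log2 fold change of -0.04 over 14 tested members, which was -0.20 without KO 2, -0.16 without WT 1, -0.03 without WT 2 and 0.00 without KO 1. For 2 of the 14 both KO-labelled libraries lay above WT (21.2% of all genes tested), and for 4 both lay below (18.4%). Map2 and Dcx, the most abundant neuronal transcripts of the list, had log2 fold changes of -0.20 ± 0.09 and -0.13 ± 0.11 (SE). Chosen after its values were seen, the tubulin gene Tubb3 had 244 and 216 CPM in KO-labelled libraries, against 339 and 358 CPM in WT (log2 fold change -0.60 ± 0.12 SE, adjusted p = 0.288), and DESeq2 called it lower (adjusted p = 0.00212). Snap25, also chosen after its values were seen, went the other way. It had 167 and 172 CPM in KO-labelled libraries, against 99.1 and 139 CPM in WT (log2 fold change 0.51 ± 0.19 SE, edgeR adjusted p = 0.56). The glutamatergic list had a median of -0.07 over 14, which turned to 0.29 without WT 2, 0.01 without KO 1 and 0.08 by limma-voom. Both KO-labelled libraries lay above WT for 5 of its members (21.2% of all genes tested) and below for 4 (18.4%). Before adjustment 3 higher and 0 lower had p under 0.05, where 5.88% of all genes tested were higher and 2.41% lower at that p. Its most abundant members, Rorb and Neurod6, had log2 fold changes of -0.43 and -0.40. Chosen after its values were seen, the kinase gene Camk2a had 48.9 and 42.6 CPM in KO-labelled libraries, against 16.5 and 15.99 CPM in WT (log2 fold change 1.495 ± 0.23 SE, adjusted p = 0.161), and DESeq2 called it higher (adjusted p = 0.000404). The astrocyte list had a median of -0.07 over 14 members, or -0.17 without KO 1 and 0.01 without KO 2 or without WT 1, and 0 members passed, with Apoe at -0.01 and the glutamate transporter gene Slc1a3 at -0.07.

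Glial and vascular lists other than that of astrocytes had higher summed levels in the libraries in which Adarb2 was lower. All 15 microglia markers had both KO-labelled libraries above WT (21.2% of all genes tested), with a median of 1.81, and 1 passed, P2ry12, a purinergic receptor (log2 fold change 2.56 ± 0.16 SE, edgeR adjusted p = 0.0288; it did not pass without KO 2 or without WT 1). Csf1r and Cx3cr1, the most abundant, had 1.90 and 2.31. The oligodendrocyte lineage had a median of 0.65 over 12 members and endothelial cells with pericytes 1.65 over 12, and 0 members of either passed; the oligodendrocyte median was 0.32 without WT 2, and the vascular median was 0.98 without KO 1. Olig1 and the myelin gene Mbp had 0.16 and 0.85, and Rgs5 and Cldn5 had 0.76 and 1.99. Whether any of these cells bear on the level of the ADAR family was not tested.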

How the data were processed

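Messenger RNA of isolated cortical astrocytes was sequenced in 2 KO-labelled libraries and 2 labelled WT. The submitters' processing notes name TopHat2 2.0.12, HTSeq 0.6.0 and Bowtie2 2.2.3 without roles, and mm9 as the build. Positions of 90.6% of the 23475 genes equal those of GENCODE M21 on GRCm38, so coordinates are given on GRCm38. The authors deposited 4 tables, each with whole-number counts per gene for a KO-labelled library and a WT library, per the file headers. Their normalized columns, deposited by the authors, equal the count times 1 factor per library, which makes them CPM, with a count of 0 replaced by 0.5 before scaling. Fold changes deposited by the authors are the ratio of those values on the log2 scale.

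Joined on gene, the tables gave the same counts for a library wherever it recurred. Counts that no table lists, at most 4 each, were taken as 0. Replicates differed by more than counting noise, at chi-square values of 21.7 (KO) and 32.8 (WT) per gene, so all 4 counted as separate libraries. Groups were compared with edgeR 4.0.16 in R 4.3.3 (filterByExpr with a minimum count of 10, TMM, quasi-likelihood test, Benjamini-Hochberg over all genes, threshold 0.05), leaving 2 residual degrees of freedom. The standard error is the fold change over the root of F. For CPM the library sizes were scaled by TMM. Lists are described by counts and medians. Genes named were the members, list members past the threshold, the 4 most abundant of each pathway, interneuron and GABAergic list, the 2 most abundant of other lists, neighbours and genes of similar pattern. Some genes that this rule names are not reported here. Others are marked in the text as chosen after their values were seen. The members and lists were chosen with earlier results of these data known. Alternatives were DESeq2 1.42.0, limma-voom 3.58.1, other scalings and filters, unlisted counts at 4, a replicate block, leaving out each library and another gene length.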

Additional observations from a re-analysis of the deposited data

How the results depend on the processing

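The log2 fold change of each family member stayed below 0 in all 12 alternatives. Leaving out each library gave -1.38 to -1.26 for Adarb2, -0.67 to -0.24 for Adar and -0.92 to -0.21 for Adarb1. Genes past the threshold over all genes, 3 higher and 0 lower, became 315 and 63 with DESeq2, 25 and 3 with limma-voom, 52 and 4 with no filter on low counts, and 63 and 5 at a mean of at least 5 CPM. Leaving out a library gave 0 to 41 higher and 0 to 1 lower, with 41 without WT 2 and 0 without KO 2. The cause was not tested. In the 6 editing, sensor and interferon lists DESeq2 called 2 genes higher, Bst2 and Gria3, and leaving out a library gave 0 in both directions. In the 8 cell type lists, where 1 gene was higher and 0 lower, DESeq2 called 23 and 2, limma-voom 6 higher, no filter 7 higher and the filter at 5 CPM 8 higher, and leaving out a library gave 0 to 8 higher and 0 lower.

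By the length of the longest transcript the log2 ratio of Adarb2 to Adar was 1.57 in KO-labelled libraries and 2.43 in WT, and that of Adar to Adarb1 was 1.22 in KO-labelled libraries, against 1.06, 1.93 and 1.52 with merged exons. The order of the 3 members was the same. Within a group, the single libraries gave 0.78 to 1.34 in KO and 1.79 to 2.06 in WT for Adarb2 to Adar, 2.17 to 3.0 in KO and 3.12 to 3.60 in WT for Adarb2 to Adarb1, and 1.38 to 1.66 in KO and 1.06 to 1.81 in WT for Adar to Adarb1.

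No pairing by replicate number was seen: deviations of same-numbered libraries correlated at 0.04 across genes. With 2 libraries a group the other pairing must give the same value with its sign changed, -0.04, so this weak value cannot exclude pairing. With the replicate block edgeR called 4 genes higher and 0 lower, and Adarb2 had a log2 fold change of -1.32 ± 0.16 (SE). With 2 libraries a group, a moderate difference in Adarb1, at 140 to 282 counts, could not be told from replicate spread.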
